A study of Mus musculus with 11 samples.

Results

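The genes described here are the 9 that encode the mouse MHC class II chains and the factors that load and switch them on: the classical chains H2-Aa, H2-Ab1 and H2-Eb1, the invariant chain Cd74, the DM chains H2-DMa and H2-DMb1, the DO chains H2-Oa and H2-Ob, and the transactivator Ciita. They were taken by name, with every probe of each gene on the array. They had 16 of the 45281 probes, 15 of these passed the detection filter, and all 9 genes were among the 8952 genes tested. RNA came from cultured microglia, the resident macrophages of the brain, prepared from newborn C57BL/6J mice, and 11 Illumina arrays were hybridised. The first group, with 2 arrays (replicates 1 and 3), had been treated for 16 h with the bacterial cell wall lipid LPS (100 ng/ml) plus the cytokine IFNg (20 ng/ml). Another had IL-4 (100 U/ml, 48 h, 3 arrays), and another had TGFb (20 ng/ml, 48 h, 3 arrays). The 3 untreated arrays come with no time. The study set activation by inflammatory stimuli beside activation by anti-inflammatory ones. No allele or transgene is named in the labels, and nothing says whether replicates were separate cultures or animals, so the p-values measure the spread between these arrays.

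MHC class II molecules carry peptides from endocytosed proteins to the cell surface, where CD4+ T cells read them. The alpha and beta chains assemble with the invariant chain, which blocks the groove and guides the complex to endosomes. There DM removes the last piece of the invariant chain and helps peptides bind, and DO restrains DM. CIITA does not bind DNA itself but joins factors that sit on a shared set of promoter boxes, and IFNg is its classical inducer. Microglia hold little class II at rest and are known to gain it in inflammation.

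The RefSeq promoter table (GRCm38.p6) held windows of 300 bases for 6 of the 9 members. The stretches below are shown because the shared boxes, where CIITA acts through bound factors, are the feature that ties these genes together. Each starts 50 bases before the Y box core TGATTGG, is written 5′ to 3′ on the gene's strand and lies on chromosome 17. Capitals mark 3 letter patterns that were chosen with the sequences in view, namely TGATTGG, the X1-type pattern AACNNATGA, and TGACGTCA, the site CREB proteins bind.
H2-Aa, chr17:34287857-34287923, minus strand: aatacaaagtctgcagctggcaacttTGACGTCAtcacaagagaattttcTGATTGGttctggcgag
H2-Eb1, chr17:34305756-34305822, plus strand: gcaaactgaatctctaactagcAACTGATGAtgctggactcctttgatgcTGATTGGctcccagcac
H2-DMb1, chr17:34153078-34153144, plus strand: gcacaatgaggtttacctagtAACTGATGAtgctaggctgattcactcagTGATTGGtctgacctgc
H2-Ob, chr17:34238796-34238862, plus strand: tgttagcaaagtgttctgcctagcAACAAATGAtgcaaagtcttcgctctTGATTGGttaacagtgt
H2-Oa, chr17:34092284-34092350, plus strand: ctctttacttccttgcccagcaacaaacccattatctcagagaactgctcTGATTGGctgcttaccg

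Searched on both strands of all 32851 windows in the table, TGATTGG was found in 7.82%, TGACGTCA in 1.79% and AACNNATGA in 2.85%. AACNNATGA followed by TGATTGG after 10 to 30 bases was found in 7 windows (0.0213%). They included those of H2-Eb1, H2-DMb1, H2-Ob and H2-DMb2, a further DM beta gene, with gaps of 19, 20, 17 and 20 bases. H2-Aa held TGACGTCA and TGATTGG, and H2-Oa held TGATTGG alone. None of the 3 patterns was in the windows of H2-DMa, which says only that these letters are not there. A match is a description of the letters, not a measured binding site.

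Signals are normalised log2 intensities, and a probe counted as detected on an array at a detection p below 0.01. The number of arrays limits the precision. Detected probes numbered 12427 to 12617 on the LPS/IFNg arrays, 13648 to 14200 on the IL-4 arrays, 12991 to 13979 on the TGFb arrays and 13869 to 13989 on the untreated arrays. Of the 2 slides, slide 2 carried all untreated arrays and replicate 3 of each stimulus, and slide 1 carried the remaining 5 stimulated arrays. Within slide 2 each stimulus thus had a single array, as LPS/IFNg had within slide 1. For such comparisons the spread was borrowed from groups with more arrays. Of 10 microglia markers with a probe, 10 were detected on at least 2 arrays, and their mean log2 signal ranged over 9.19 to 9.64 on LPS/IFNg arrays, 10.72 to 10.95 on IL-4 arrays, 11.44 to 12.11 on TGFb arrays and 10.90 to 11.91 on untreated arrays. T cell markers were detected on no array (3 of 3 with a probe). Of 3 B cell markers with a probe, Ms4a1 and Pax5 were detected on no array and Cd79b on 7. Of 8 dendritic cell markers, Flt3, Cd209a and Xcr1 were detected on no array, Zbtb46 on 1, Itgax, Ccr7 and Clec9a on 2 each and Clec10a on 3. IL-4 replicate 1 stood apart in fibroblast and mural cell markers, with a mean of 7.46 against at most 5.69 on any other array. In RNA from mixed cells, fewer cells of a type and less RNA per cell cannot be told apart.

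The classical chains form the peptide-binding molecules themselves, and the probes of all 3 were bright on both LPS/IFNg arrays and near or below the detection limit, or much dimmer, elsewhere. H2-Aa, the alpha chain of the I-A molecule (probe ILMN_2734729), had log2 signals of 9.08 and 10.42 with LPS/IFNg, 4.36, 5.44 and 4.32 with IL-4, 4.70, 4.37 and 4.59 with TGFb, and 4.72, 4.62 and 4.35 in untreated cells. It was detected on both LPS/IFNg arrays and on IL-4 replicate 2, and on no TGFb or untreated array. H2-Ab1, the I-A beta chain (ILMN_1226525), was detected on all 11 arrays, at 12.42 and 12.70 with LPS/IFNg, 5.72, 7.13 and 5.30 with IL-4, 6.82, 7.63 and 7.30 with TGFb, and 6.89, 6.19 and 7.21 in untreated cells. H2-Eb1, the beta chain of the I-E molecule (ILMN_1239102), stood at 10.82 and 11.28 with LPS/IFNg, 4.75, 5.91 and 4.45 with IL-4, 4.71, 4.47 and 4.72 with TGFb, and 5.23, 4.99 and 4.51 in untreated cells. H2-Eb1 was detected on both LPS/IFNg arrays, on 1 of 3 IL-4 arrays, on no TGFb array and on 1 of 3 untreated arrays. In each of these genes the LPS/IFNg arrays lay above every other array, and among the IL-4 arrays replicate 2 was the highest of its group in all 3. C57BL/6 mice make no functional I-E alpha chain, and the H2-Ea probe was detected on no array.

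The invariant chain had another pattern, with high signals under 2 stimuli. Cd74 (ILMN_3089584) had log2 signals of 12.93 and 13.05 with LPS/IFNg, 11.95, 12.93 and 13.12 with IL-4, 9.14, 9.02 and 8.16 with TGFb, and 11.11, 8.76 and 10.86 in untreated cells. The LPS/IFNg and IL-4 arrays overlapped each other and lay above all untreated arrays, while the TGFb arrays overlapped the untreated group through untreated replicate 2. Its mean was 12.99 ± 0.09 with LPS/IFNg (SD, n = 2), 12.67 ± 0.63 with IL-4 (SD, n = 3) and 8.77 ± 0.54 with TGFb (SD, n = 3), against 10.24 ± 1.29 in untreated cells (SD, n = 3). The order of the means was thus LPS/IFNg, IL-4, untreated, TGFb. The top pair did not differ beyond its spread, and neither IL-4 nor TGFb was called against untreated cells (limma adjusted p = 0.0668 and 0.326).

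The DM chains, which edit the bound peptide, were detected on all 11 arrays and were brightest with LPS/IFNg or TGFb. H2-DMa (ILMN_2866856) had log2 signals of 9.64 and 10.19 with LPS/IFNg, 7.44, 8.70 and 8.68 with IL-4, 11.04, 10.19 and 9.98 with TGFb, and 9.08, 7.75 and 9.32 in untreated cells. H2-DMb1 (ILMN_1244977) kept to a narrow range, with 9.65 and 9.86 with LPS/IFNg, 9.08, 8.79 and 8.76 with IL-4, 9.54, 9.64 and 9.37 with TGFb, and 9.17, 8.54 and 9.11 in untreated cells. For both genes every LPS/IFNg and TGFb array lay above every IL-4 and untreated array. H2-DMb1 has a near-identical neighbour, H2-DMb2, and which of them a probe reads is uncertain.

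The DO chains, which hold DM back and are best known from B cells, differed from each other. H2-Oa (ILMN_2773037) had log2 signals of 7.85 and 7.24 with LPS/IFNg, 5.14, 4.81 and 5.04 with IL-4, 7.00, 6.24 and 5.86 with TGFb, and 5.20, 4.76 and 6.07 in untreated cells. H2-Ob (ILMN_2670690) had 5.74 and 5.95 with LPS/IFNg, 4.57, 5.05 and 4.95 with IL-4, 7.66, 7.40 and 7.35 with TGFb, and 5.50, 5.34 and 6.35 in untreated cells. H2-Oa was detected on 2 of 3 IL-4 and 2 of 3 untreated arrays and on all others, and it was highest on the LPS/IFNg arrays. H2-Ob was highest on the TGFb arrays, which overlapped no other group. The H2-Ob probe was detected on all LPS/IFNg, TGFb and untreated arrays and on no IL-4 array. Its mean was 5.84 ± 0.15 with LPS/IFNg (SD, n = 2), 4.86 ± 0.26 with IL-4 (SD, n = 3) and 7.47 ± 0.17 with TGFb (SD, n = 3), against 5.73 ± 0.54 in untreated cells (SD, n = 3). The mean was thus highest with TGFb and lowest with IL-4, though IL-4 was not called against untreated cells (limma adjusted p = 0.136). LPS/IFNg and untreated cells, next to each other in that order, did not differ beyond their spread.

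Ciita (ILMN_2678211), the class II transactivator gene, was detected on both LPS/IFNg arrays and on no other array. Its log2 signals were 5.69 and 6.87 with LPS/IFNg, 4.60, 4.41 and 4.38 with IL-4, 4.75, 4.39 and 4.30 with TGFb, and 4.43, 4.44 and 4.48 in untreated cells. A second Ciita probe was detected on no array, LPS/IFNg included, so the Ciita values rest on a single probe.

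**Figure D1:**
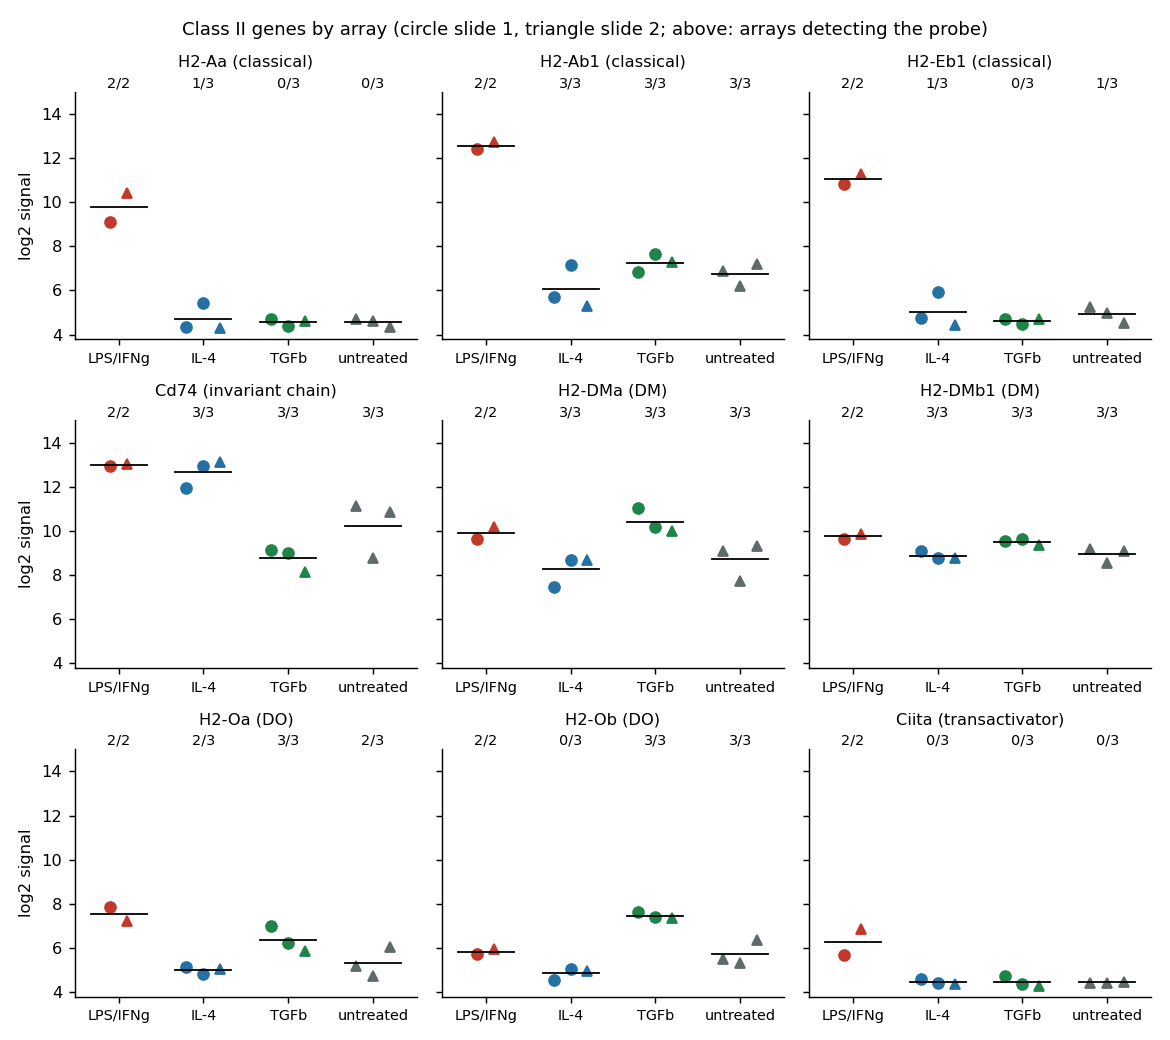
Log2 signal of the 9 class II genes on each of the 11 arrays, 1 panel per gene, with groups in the order LPS/IFNg, IL-4, TGFb and untreated on the horizontal axis. Points are arrays (circles slide 1, triangles slide 2), bars are group means and the fractions give the arrays that detected the probe. The classical chains and Ciita stand out with LPS/IFNg only (H2-Ab1 at 12.42 and 12.70), Cd74 with LPS/IFNg and IL-4, and H2-Ob with TGFb (7.35 to 7.66).

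LPS/IFNg against untreated cells asks what a proinflammatory stimulus did to the class II genes. Of the 9 genes, 7 rose, 0 fell and 2 (H2-DMa and H2-Ob) were not called, at a limma adjusted p below 0.05 over all genes. Ciita passed the detection filter only through the LPS/IFNg arrays, and with detection required on at least 3 arrays it was not tested and 6 of 8 genes rose. H2-Aa, detected on both LPS/IFNg arrays and on 1 IL-4 array, also passed only through the LPS/IFNg arrays. It is still among the 6, so the stricter filter does not free that count of this selection. The background in this comparison was high, with 41.0% of all genes called, 17.5% higher and 23.5% lower (1568 and 2106 genes, against 1011 and 2322 with median scaling). The classical chains had larger differences than Cd74 and the DM and DO chains, and for Ciita only a lower bound is known. The median difference was 2.20 log2 units over the 9 genes (2.10 with signals below an array's lowest detected signal raised to it) and -0.07 over all genes, and 8 of the 9 genes had groups that did not overlap, as had 63.1% of all genes.

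H2-Eb1 had a fitted difference of 6.14 ± 0.38 log2 units (SE, limma adjusted p = 1.21e-06). Only 1 of 3 untreated arrays detected it, and with signals below an array's lowest detected signal raised to it the difference was 5.93, or 61.0-fold. H2-Ab1 was 5.79 ± 0.48 higher (adjusted p = 8.26e-06), or 55.5-fold, and its 3 probes agreed, at 5.52 to 5.79. H2-Aa, undetected in untreated cells, was at least 25.7-fold higher (adjusted p = 4.69e-06). By size of rise H2-Ab1 ranked 24 among the 8952 genes. On the arrays of slide 2 alone, where 1 LPS/IFNg array met the untreated arrays and was assumed to vary like them, the difference of H2-Ab1 was 5.93.

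Cd74 was 2.75 ± 0.62 log2 units higher with LPS/IFNg (SE, limma adjusted p = 0.00502), or 6.71-fold, and its 3 probes gave 2.75 to 3.61. On slide 2 alone, with a single LPS/IFNg array, Cd74 differed by 2.81. Without untreated replicate 2, the low one, the difference was 2.01, and the gene was still called. The untreated group spanned 8.76 to 11.11, the widest range of any member in any group.

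Of the DM chains, H2-DMb1 was 0.82 ± 0.21 log2 units higher (SE, limma adjusted p = 0.0106), or 1.76-fold, and H2-DMa differed by 1.19 ± 0.52 (95% interval 0.03 to 2.36, adjusted p = 0.0932). The H2-DMb1 call was lost without LPS/IFNg replicate 3, which left a single LPS/IFNg array. On slide 2 alone, again with a single such array, H2-DMb1 differed by 0.93. Of the DO chains, H2-Oa was 2.20 ± 0.40 higher (adjusted p = 0.00137), or 4.59-fold, and its second probe, fitted with all probes, gave 1.44 ± 0.34 (adjusted p = 0.00738). H2-Ob differed by 0.11 ± 0.28 (95% interval -0.51 to 0.74, adjusted p = 0.78), and by -0.23 with median scaling. Ciita was at least 2.32-fold higher (adjusted p = 0.000543).

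Set beside each other as departures from the untreated mean of each gene, the values of H2-Ab1 on the LPS/IFNg arrays were 5.65 and 5.93 log2 units. Those of Cd74 were 2.69 to 2.81, those of the DM chains 0.71 to 1.47 and those of the DO chains 0.00 to 2.50. Both H2-Ab1 values thus lay above every value of these other members. H2-Aa, H2-Eb1 and Ciita, detected on at most 1 untreated array, were left out of this order. LPS/IFNg replicate 3 was the higher of the pair in 8 of the 9 genes, all but H2-Oa.

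Some markers of other cells moved with this comparison too. Ccr7, a chemokine receptor of migrating dendritic cells, had log2 signals of 7.42 and 7.17 with LPS/IFNg and was detected on no other array. Clec9a, a lectin of a dendritic cell subset, had 6.48 and 7.27 there and was detected on no other array. The mean over the 8 dendritic cell markers was 5.15 to 5.25 on the LPS/IFNg arrays against 4.43 to 4.58 on the untreated arrays, and Flt3, Cd209a and Xcr1 were detected on no array. Of the 8, only Ccr7 and Clec9a were detected on the LPS/IFNg arrays, so that mean mostly repeats them. Itgax had 4.54 and 4.57 there, Clec10a 4.39 and 4.42, and Zbtb46 4.50 and 4.45. The part of these markers in the class II differences was not tested.

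IL-4 against untreated cells asks what an alternative activation stimulus did to the same genes. By limma 0 of the 9 genes were called in either direction (2 at an unadjusted p below 0.05, Cd74 and H2-Ob), where 1.28% of all genes were called, 0.860% higher and 0.424% lower (77 higher and 38 lower, 63 and 15 with median scaling). The median difference was -0.06 log2 units over the 9 genes and 0.01 over all genes. The groups did not overlap in 2 genes, Cd74 and H2-Ob, against 18.5% of all genes.

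Cd74 was 2.43 ± 0.56 log2 units higher with IL-4 (SE, 95% interval 1.19 to 3.66, limma adjusted p = 0.0668), not called and rank 20 by size of rise among the 8952 genes. This fit does not pair the arrays. With the replicate number as a block, over all groups or these 2 groups alone, Cd74 was not called either. All 3 IL-4 arrays lay above all 3 untreated arrays, by at least 0.85 log2 units. The gene passed in 3 of 24 alternatives (lowest adjusted p = 0.0401), and of its 3 probes 1 passed when all probes were tested (adjusted p = 0.0312 to 0.1). Without untreated replicate 2 the difference was 1.68, and on slide 2 alone, with a single IL-4 array, it was 2.88. Markers of border macrophages had a mean log2 signal of 7.35 to 9.34 with IL-4 and 6.89 to 7.84 in untreated cells over 6 genes, with Lyve1 detected on no array. IL-4 replicate 1, the highest in these markers at 9.34, had the lowest Cd74 of its group. The mean of the 8 dendritic cell markers was 4.74 to 4.92 with IL-4 and 4.43 to 4.58 in untreated cells, without overlap. Clec10a, a lectin of dendritic cells and macrophages, had 8.22, 5.61 and 6.17 with IL-4 and was detected on no other array, and Itgax, the integrin chain CD11c, was detected on 2 arrays and was highest on IL-4 replicate 2, at 5.83. The part of these markers in the Cd74 difference was not tested.

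The other members gave no call with IL-4. H2-Ob went undetected on all 3 IL-4 arrays and was detected on all 3 untreated arrays, which were at least 1.59-fold brighter (limma adjusted p = 0.136). H2-Ab1 differed by -0.71 ± 0.43 log2 units (SE, 95% interval -1.67 to 0.25, adjusted p = 0.515), H2-DMa by -0.44 ± 0.47 (adjusted p = 0.741) and H2-DMb1 by -0.06 ± 0.19 (adjusted p = 0.925). H2-Aa was detected on 1 IL-4 array and no untreated array, H2-Eb1 on 1 array of each group and Ciita on none, so their differences are not given a size. H2-Oa differed by -0.34 ± 0.36 (adjusted p = 0.737).

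TGFb against untreated cells asks the same of an anti-inflammatory stimulus. Of the 9 genes 1 rose, H2-Ob, and 8 were not called, where 0.983% of all genes were called, 0.614% higher and 0.369% lower (55 higher and 33 lower, 24 and 42 with median scaling). The median difference was 0.48 log2 units over the 9 genes and 0.01 over all genes, and the groups did not overlap in 3 genes, H2-Ob, H2-DMa and H2-DMb1, against 17.7% of all genes.

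H2-Ob was 1.74 ± 0.25 log2 units higher with TGFb (SE, limma adjusted p = 0.0173), or 3.33-fold, with all 3 TGFb arrays at least 1.00 above all untreated arrays. The call was lost with slide as a fixed block (1.77, limma adjusted p = 0.0724) and in a fit of the TGFb and untreated arrays only. It was also lost without TGFb replicate 2, TGFb replicate 3 or untreated replicate 1. The lowest value of H2-Ob over the arrays left out in turn was 1.54. On slide 2 alone, with a single TGFb array, the difference was 1.62. Of the B cell markers, Cd79b had log2 signals of 6.07, 5.55 and 4.68 with TGFb and 6.55, 4.96 and 6.55 in untreated cells, and Ms4a1 and Pax5 were detected on no array.

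The remaining loading chains gave positive values with TGFb that did not pass the test. H2-DMa differed by 1.68 ± 0.47 log2 units (SE, 95% interval 0.65 to 2.72, limma adjusted p = 0.143), rank 33 by size of rise, next to H2-Ob at rank 32. H2-Oa differed by 1.03 ± 0.36 (adjusted p = 0.267) and H2-DMb1 by 0.58 ± 0.19 (adjusted p = 0.23). H2-Ab1 differed by 0.48 ± 0.43 (adjusted p = 0.79). H2-Aa was detected in neither group and H2-Eb1 on 1 untreated array alone, and neither was called.

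Cd74 had the opposite sign, at -1.47 ± 0.56 log2 units (SE, 95% interval -2.70 to -0.24, limma adjusted p = 0.326). Here a single library decided the call, since without untreated replicate 2 the value was -2.21 (adjusted p = 0.0448). That array had the lowest signal of its group in 6 of the 9 genes, all but H2-Aa, H2-Eb1 and Ciita, and the lowest mean of the microglia markers, at 10.90. As departures from the untreated means, the DM chains on the TGFb arrays lay at 0.43 to 2.32, the DO chains at 0.52 to 1.93, H2-Ab1 at 0.06 to 0.87 and Cd74 at -2.09 to -1.10.

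**Figure D2:**
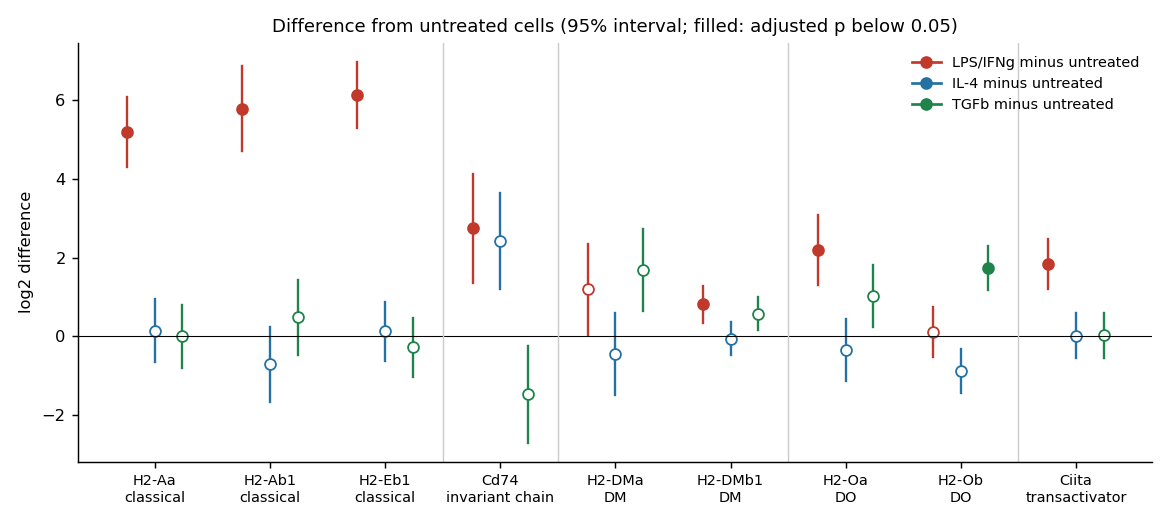
Difference in log2 signal from untreated cells for each class II gene under LPS/IFNg, IL-4 and TGFb, with 95% intervals from the fit. Filled points passed an adjusted p of 0.05: 7 genes with LPS/IFNg (H2-Ab1 at 5.79), none with IL-4 (Cd74 at 2.43 is drawn open) and H2-Ob with TGFb (1.74). The untreated arrays are shared by the 3 comparisons, and undetected signals are drawn at their fitted values.

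The stimuli were then set against each other. The 3 comparisons below share arrays with each other and with those above, so they are not independent of them. LPS/IFNg cells were read at 16 h and the others at 48 h, and stimulus and time cannot be told apart.

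Against IL-4, LPS/IFNg cells had 8 of the 9 genes higher and 0 lower, where 40.0% of all genes were called, 16.4% higher (1470 higher and 2107 lower, 912 and 2506 with median scaling). Ciita and H2-Aa, which passed the detection filter only through the LPS/IFNg arrays, are among the 8. With detection required on at least 3 arrays Ciita was not tested and 7 of 8 genes, H2-Aa still among them, were higher. There 40.8% of all genes were called. The median was 1.82 log2 units over the 9 genes (1.64 with signals below an array's lowest detected signal raised to it) and -0.10 over all genes. H2-Ab1 was higher by 6.51 ± 0.48 (SE, limma adjusted p = 4.48e-06), by 5.99 within slide 1 and by 7.40 within slide 2. H2-Eb1 (adjusted p = 1.56e-06) and H2-Aa (adjusted p = 6.89e-06) were each detected on 1 of 3 IL-4 arrays, and with low signals raised in the same way they were higher by 5.73 and 4.59 log2 units. Cd74, the exception, differed by 0.32 ± 0.62 (95% interval -1.06 to 1.70, adjusted p = 0.712), by 0.49 within slide 1 and by -0.07 within slide 2.

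H2-Oa was higher with LPS/IFNg than with IL-4 by 2.54 ± 0.40 log2 units (SE, limma adjusted p = 0.000574) and Ciita at least 2.33-fold (adjusted p = 0.000598). H2-DMb1 was higher by 0.88 ± 0.21 (adjusted p = 0.0077), H2-DMa by 1.64 ± 0.52 (adjusted p = 0.0295) and H2-Ob at least 1.72-fold (adjusted p = 0.018). The last 2 calls were the least stable, each passing in 17 of 24 alternatives. Without LPS/IFNg replicate 3, the calls of H2-DMa, H2-DMb1 and H2-Ob were lost and 5 of the 8 were left. The H2-Ob call was also lost with median scaling (adjusted p = 0.125).

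Against TGFb, LPS/IFNg cells had 6 genes higher and 1 lower, where 42.0% of all genes were called, 17.8% higher and 24.2% lower. With detection required on at least 3 arrays Ciita was not tested, and 5 of 8 genes were higher and 1 lower, where 42.8% of all genes were called. H2-Aa, like Ciita, passed the main filter only through the LPS/IFNg arrays, and it was still among the 5. The median was 1.80 log2 units over the 9 genes (1.17 with low signals raised) and -0.07 over all genes. H2-Eb1 was at least 59.6-fold higher (limma adjusted p = 8.03e-07), H2-Ab1 was 39.6-fold higher (adjusted p = 1.22e-05) and H2-Aa at least 24.3-fold higher (adjusted p = 4.4e-06). Cd74 was 4.22 ± 0.62 log2 units higher (SE, adjusted p = 0.000313), with 3.85 within slide 1 and 4.89 within slide 2. Ciita was at least 2.19-fold higher (adjusted p = 0.000525).

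The loading chains split in this comparison. H2-Ob was 1.62 ± 0.28 log2 units lower with LPS/IFNg than with TGFb (SE, limma adjusted p = 0.000902), a 3.08-fold difference. H2-Ob differed by -1.79 within slide 1 and by -1.40 within slide 2, where LPS/IFNg had a single array each time. H2-Oa, its DO partner, was 1.17 ± 0.40 higher (adjusted p = 0.0363), a call that passed in 15 of 24 alternatives and was lost with median scaling (0.99, adjusted p = 0.101). Its second probe gave 0.91 ± 0.34 and was not called (adjusted p = 0.0592). The DM chains were not called, with H2-DMa at -0.49 ± 0.52 (95% interval -1.65 to 0.67, adjusted p = 0.485) and H2-DMb1 at 0.24 ± 0.21 (95% interval -0.23 to 0.71, adjusted p = 0.399).

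IL-4 against TGFb gave 1 gene higher and 3 lower, where 8.58% of all genes were called, 3.92% higher and 4.66% lower (351 and 417 genes, 431 and 214 with median scaling). Cd74 was 3.90 ± 0.56 log2 units higher with IL-4 (SE, limma adjusted p = 0.00256), or 14.9-fold, and its 3 probes gave 3.90 to 4.10. H2-DMa was lower by 2.13 ± 0.47 (adjusted p = 0.0193), or 4.37-fold, and H2-Oa by 1.37 ± 0.36 (adjusted p = 0.04), while the second H2-Oa probe gave -0.71 ± 0.31 and was not called (adjusted p = 0.231). H2-Ob, undetected with IL-4, was at least 5.30-fold lower (adjusted p = 0.000334). H2-DMb1 differed by -0.64 ± 0.19 (adjusted p = 0.0665) with groups that did not overlap, and the classical chains were not called. The median was -0.64 over the 9 genes and 0.02 over all genes.

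The IL-4 and TGFb calls differed in how far single arrays carried them. Cd74 and H2-Ob passed with each array left out in turn, while H2-DMa lost its call without TGFb replicate 1 or 2 and H2-Oa passed in 11 of 24 alternatives. Cd74 differed by 3.36 within slide 1 (limma adjusted p = 0.0572) and by 4.96 within slide 2, where each stimulus had a single array. H2-Ob, undetected with IL-4, was not called within slide 1 (limma adjusted p = 0.0501).

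**Figure D3:**
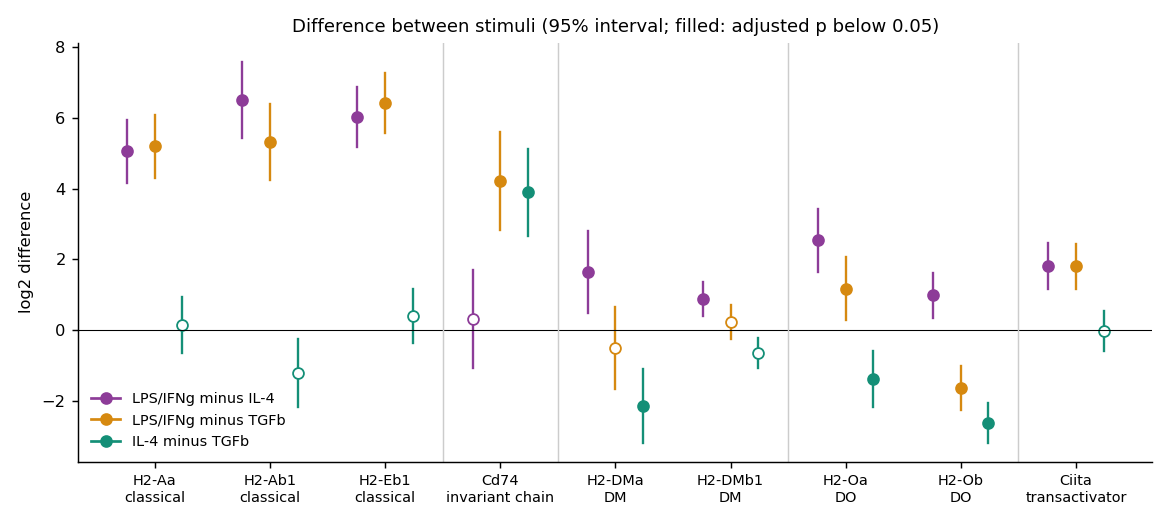
Difference in log2 signal between stimuli for each class II gene, with 95% intervals from the fit and filled points at an adjusted p below 0.05. LPS/IFNg lay above IL-4 in 8 genes, Cd74 (0.32) was not called, and IL-4 lay above TGFb in Cd74 (3.90) and below it in H2-DMa (-2.13), H2-Oa (-1.37) and H2-Ob (at least 5.30-fold). Undetected signals are drawn at their fitted values.

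The other genes of the pathway were counted from a list of 38, of which 31 were tested. With LPS/IFNg against untreated cells 6 were higher, 5 lower and 20 not called, with a median of 0.15 log2 units. The 35.5% called lay below the 41.0% of all genes called in that comparison. With IL-4 and with TGFb against untreated cells 0 of 31 were called by limma (6 and 4 at an unadjusted p below 0.05), the lowest adjusted p among the interferon signalling genes with IL-4 being that of Jak2 at 0.0573 (1.27 ± 0.28 log2 units, SE, limma). Between stimuli, 8 were higher and 6 lower with LPS/IFNg than with IL-4, 6 higher and 5 lower with LPS/IFNg than with TGFb, and 3 higher and 2 lower with IL-4 than with TGFb. These were 45.2%, 35.5% and 16.1% of the list, where 40.0%, 42.0% and 8.58% of all genes were called.

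Of the 11 tested genes upstream of Ciita, 4 rose and 1 fell with LPS/IFNg, or 45.5% called, close to the 41.0% of all genes. Irf1, a factor that acts on the IFNg-responsive Ciita promoter, had log2 signals of 14.03 and 14.13 with LPS/IFNg and 11.16, 10.64 and 10.89 in untreated cells, higher by 3.18 ± 0.38 (SE, limma adjusted p = 9.31e-05). Jak2, a kinase of the IFNg receptor, was higher by 2.85 ± 0.31 (adjusted p = 4.55e-05), and Socs1, a feedback inhibitor of that kinase, at least 3.23-fold (adjusted p = 6.67e-05). Spi1, the myeloid factor PU.1, was higher by 0.62 ± 0.19 (adjusted p = 0.0254). Ifngr1, the ligand-binding chain of the receptor, fell by 2.51 ± 0.30 (adjusted p = 9.89e-05), with log2 signals of 8.60 and 8.67 with LPS/IFNg against 11.08, 11.27 and 11.08 in untreated cells.

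Of the 6 tested factors that sit on the class II promoter boxes, 0 were called by limma in any of the 6 comparisons, and at an unadjusted p below 0.05 there was 1, Rfxap in LPS/IFNg against TGFb (-0.50 log2 units, unadjusted p = 0.0272, limma adjusted p = 0.0622). Nfyc, a subunit of the factor that binds the Y box, differed by -0.11 ± 0.18 log2 units with LPS/IFNg (SE, limma adjusted p = 0.646), while Rfx5 did not pass the detection filter. Rfxank was detected on 2 IL-4 arrays and 1 TGFb array only, so its values in LPS/IFNg and untreated cells are background and show no measured lack of change. H2-DMb2, the neighbour of H2-DMb1, had 9.35 and 9.77 with LPS/IFNg and 8.78, 8.08 and 8.84 in untreated cells, higher by 0.99 ± 0.26 (adjusted p = 0.0114). It gave 0.63 ± 0.23 with TGFb (adjusted p = 0.31) and -0.18 ± 0.23 with IL-4 (adjusted p = 0.798), where H2-DMb1 gave 0.58 and -0.06. These H2-DMb2 values came from its brighter probe. The second H2-DMb2 probe, detected on 3 arrays, had 4.45 and 4.93 with LPS/IFNg and 4.80, 4.45 and 5.34 in untreated cells.

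Of the 8 endosomal enzymes, proteases and a reductase that process the invariant chain or antigens, 0 rose and 4 fell with LPS/IFNg, with a median of -0.67 log2 units. Of all genes 23.5% were called lower in this comparison. Ctss, cathepsin S, which cleaves the invariant chain, fell by 0.89 ± 0.27 (SE, limma adjusted p = 0.0225), and Lgmn, an asparagine-specific protease, by 0.75 ± 0.16 (adjusted p = 0.00406). Ctsd, cathepsin D, fell by 1.63 ± 0.27 (adjusted p = 0.000795), and Ctsl, cathepsin L, was detected on no LPS/IFNg array and was at least 3.54-fold lower (adjusted p = 0.00248). Of 5 tested genes of surface turnover and binding partners, 1 was called higher and 0 lower, where 17.5% of all genes were called higher. It was Marchf1, a ubiquitin ligase that removes class II from the surface, which rose by 1.12 ± 0.36 (adjusted p = 0.0303).

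**Figure D4:**
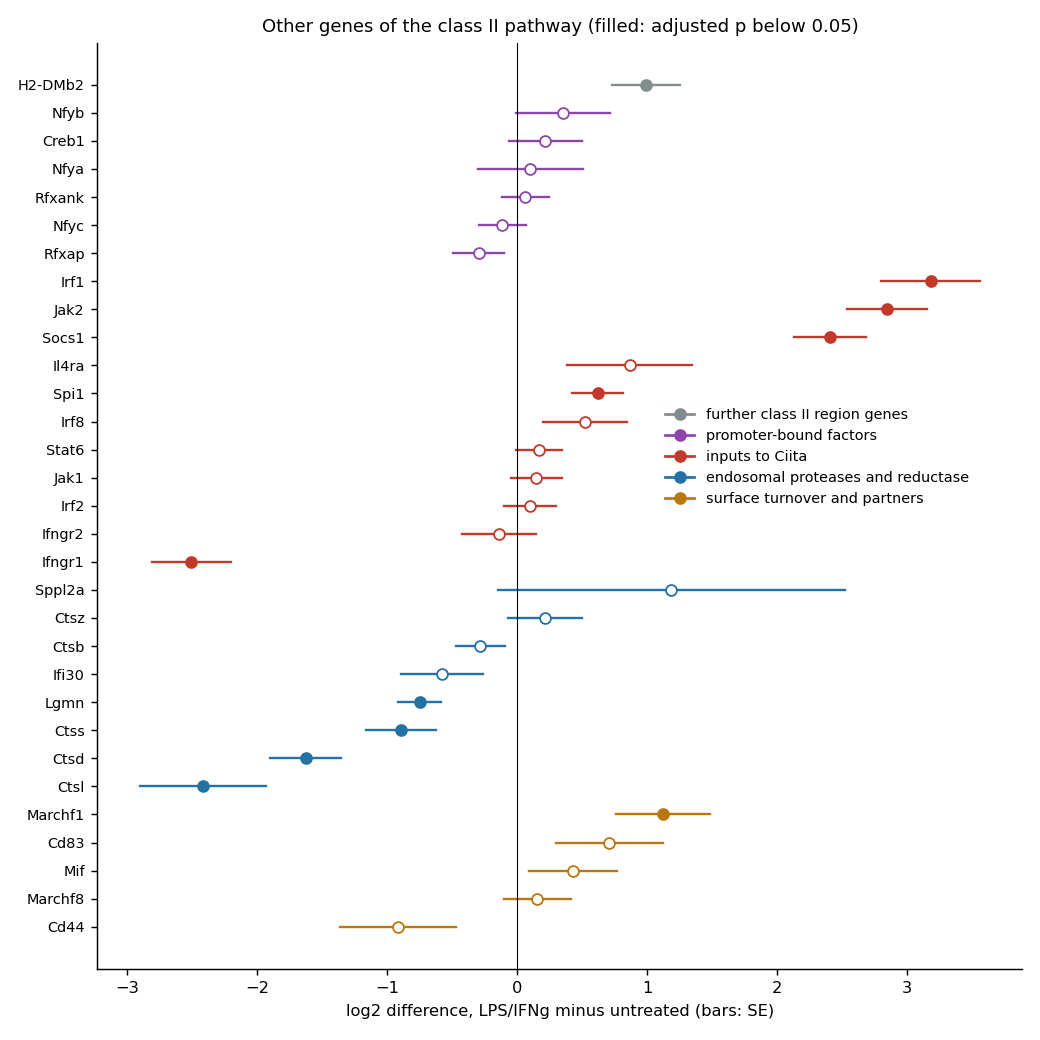
Difference in log2 signal between LPS/IFNg and untreated cells for the 31 tested pathway genes, grouped by role, with bars of 1 SE and filled points at an adjusted p below 0.05. Irf1 (3.18), Jak2 (2.85) and Socs1 lie to the right, Ifngr1 (-2.51) and 4 proteases to the left, and the promoter-bound factors lie near 0. Socs1 and Ctsl are drawn at fitted values although undetected in untreated and LPS/IFNg cells in turn, and Rfxank although undetected in both.

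Across the 11 arrays the members fell into several patterns, given here as a description, since the correlations share the 2 LPS/IFNg arrays as their high points. Pearson's r with the mean of the classical chains was 0.93 for Ciita, 0.74 for H2-Oa, 0.63 for H2-DMb1, 0.48 for Cd74, 0.34 for H2-DMa and -0.02 for H2-Ob. H2-Ob and Cd74 ran against each other, with r = -0.69. Of all other tested genes, the 5 most like the classical chains were Fbrs, Ldoc1, Ppp1r26, Gbp2b, a guanylate-binding protein gene, and Egfem1, at r = 0.99. Those most like Ciita were Ttll2, Egfem1, Bcl2l14, Clec9a and Gm6377, at r = 0.97. All of these, and those most like the classical chains except Fbrs, were detected on the 2 LPS/IFNg arrays and on no other array. They entered the test only through those arrays, so their r reflects that split over background signals elsewhere.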

How the data were processed

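Expression in 11 microglia samples was read on Illumina bead arrays after biotin labelling. Per the file headers, the deposited scanner table gives a mean bead intensity, not normalized between arrays, and a detection p-value for each of 45281 probes and each array. The authors also deposited log2 values per probe, made with Partek per the submitters' processing notes, with other steps not given in the sources used here.

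Intensities were processed in R 4.3.3 with limma 3.58.1, whose neqc function corrects the background (normexp, offset 16), quantile normalizes and takes log2. Probes detected at p below 0.01 on at least 2 arrays were kept (15937, of which 13765 had 1 gene), and the probe with the highest mean stood for its gene (8952 genes). Of all probes 34885 had 1 symbol, 18 several and 10378 none, and 34807 symbols were updated through Entrez identifiers. A model of 4 group means over the 11 arrays was fitted (lmFit, then eBayes; residual degrees of freedom 7, prior 3.52), with 6 contrasts, Benjamini-Hochberg adjustment over the 8952 genes and calls at an adjusted p below 0.05. Differences are log2, the group named first minus the second. Where no array of the dimmer group detected the probe, the bound "at least N-fold" sets the brighter group's mean against the dimmer group's mean of, per array, the lowest detected signal or the probe's value, whichever is higher. For probes detected on some arrays of a group, values given with low signals raised have the same floor on every array. The H2-Oa differences are given without this floor. With it H2-Oa differed by 2.10 for LPS/IFNg and 0.92 for TGFb against untreated cells. It differed by 2.44 for LPS/IFNg against IL-4 and by -1.27 for IL-4 against TGFb. For LPS/IFNg against untreated cells, simulated data over 8952 genes gave recovery of 46% of changes of 1 log2 unit and 87% of changes of 2. There, a small part of the genes was changed and the noise was independent between genes. In the data 41.0% of all genes were called, so these shares need not hold for the real comparison.

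The 9 members and the pathway and marker lists were chosen with earlier results of these data known. Named were all members, pathway genes called against untreated cells (or the brightest of a subgroup with none) and the 5 genes most correlated with the classical mean and with Ciita. Genes of the marker lists were named where they bear on a comparison, after their values were seen. Replicate numbers are given in the labels. Deviations of same-numbered arrays correlated at 0.40, 0.44 and 0.26 between IL-4 and untreated cells, over 0.1 in every pair, so the numbers were taken to pair the arrays there. In the other contrasts a pair fell below 0.1 or only 2 pairs exist. Promoter letters were searched in RefSeq windows of 250 bases before to 50 after the start. The alternatives were other background correction, scaling, filters and probe choice, the authors' table, slide as a block or within 1 slide, the replicate block, robust eBayes, the 2 groups alone, and each array left out.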

Additional observations from a re-analysis of the deposited data

How the results depend on the processing

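Over the 54 gene differences, 1204 of 1272 values under alternatives stayed on their side of the threshold, 60 lost their call, 8 gained one and 0 called values changed sign. The count of class II genes called with IL-4 against untreated cells was 0, and 1 (Cd74) with the authors' table, median scaling or slide as a random block. Of all genes 1.28% were called in the main fit there, and 4.54%, 0.871% and 1.88% in these alternatives in turn. With TGFb against untreated cells the count was 1, and 0 with slide as a fixed block or with the 2 groups alone. Of all genes 0.983% were called in the main fit, and 0.101% and 0.447% in these alternatives. With LPS/IFNg against IL-4 it was 8, where 40.0% of all genes were called. With IL-4 against TGFb it was 4, where 8.58% of all genes were called. On slide 1 only, chosen after seeing the data, IL-4 against TGFb gave 0, but there 0.302% of all genes were called. With so few calls that 0 says little about the class II genes. On slide 2 only each stimulus had a single array, as LPS/IFNg had on slide 1 only, so counts of those comparisons are not read. Leaving out each array gave 6 to 7 genes with LPS/IFNg, 0 to 0 with IL-4 and 0 to 2 with TGFb against untreated cells, 5 to 8 with LPS/IFNg against IL-4, 6 to 7 with LPS/IFNg against TGFb and 2 to 5 with IL-4 against TGFb. The lowest of these came without LPS/IFNg replicate 3 against IL-4 and without TGFb replicate 1 or 2 for IL-4 against TGFb. Without TGFb replicate 1 or 2, 5.74% and 4.37% of all genes were called for IL-4 against TGFb. With the replicate number as a block, which pairs the IL-4 and untreated arrays, the count was 0 with IL-4 against untreated cells and Cd74 had an adjusted p of 0.073 (0.128 with these 2 groups alone, chosen after seeing the data). The block gave 7 genes with LPS/IFNg and 1 with TGFb against untreated cells, 7 with LPS/IFNg against IL-4, 6 with LPS/IFNg against TGFb and 4 with IL-4 against TGFb. In that order 42.8%, 1.65%, 40.9%, 42.9% and 10.4% of all genes were called, and 2.06% with IL-4 against untreated cells. Median scaling moved the median of all genes from -0.07 to -0.25 with LPS/IFNg and from 0.01 to -0.11 with TGFb against untreated cells, from -0.10 to -0.32 with LPS/IFNg against IL-4, and from 0.02 to 0.17 with IL-4 against TGFb. Untreated arrays lie on slide 2 alone, so for the stimulated arrays of slide 1 the slide and the comparison cannot be told apart. Ciita, H2-Aa, H2-Eb1 and H2-Ob lay near background in some groups. Where no array of a group detected the probe, only a bound is known.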
